A study of Mus musculus with 4 samples.

Results

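Arg1, Arg2 and Nos2, the genes of the 2 arginases and of inducible nitric oxide synthase, were followed through every authors' cluster of CD45+ cells sorted from mouse breast tumours. The 3 genes were taken by name from the expression tables, which hold 11407 genes. The tumours had received a control plasmid or an IL-12 plasmid, a construct for the cytokine IL-12, which dendritic cells and macrophages make and which acts on T and NK cells, by intratumoral injection followed by electroporation. One library was made per treatment from the pooled live CD45+ cells of 3 mice, so the 2 libraries cannot show the spread between mice and no test of treatment was possible. The series names the tumours triple-negative, and the expression tables carry the name 4T1, that of a mouse triple-negative mammary tumour line, while the growth protocol describes HER2 expression induced in the mammary tissue of mice aged 1 month. Which model was used was not settled from these labels, and strain, promoter and inducer were not given in the sources used here.

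Arginases split arginine into ornithine and urea, and nitric oxide synthases turn arginine into citrulline and nitric oxide, so these enzymes draw on the same amino acid. Arginase 1 is a cytosolic enzyme that IL-4, IL-13 and hypoxia are known to induce in mouse macrophages, while arginase 2 is mitochondrial. Inducible nitric oxide synthase is classically switched on in macrophages by interferon-gamma together with microbial or inflammatory signals. In tumours, myeloid cells that use up arginine or release nitric oxide are known to restrain T cells.

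The control library held 4232 cells and 17306854 UMIs (unique molecular identifiers, each standing for a captured RNA molecule), at a median depth of 3021 UMIs. The IL-12 library held 12979 cells and 59956933 UMIs, at a median depth of 3418 UMIs. Levels are UMIs per 1000000 (CPM) of the UMIs summed over the cells of a group, with exact 95% Poisson intervals that cover counting error only. Between the libraries, 87 cell barcodes were shared. The cells called macrophages carried 8 of 8 macrophage markers, summing to 11412 CPM in the control and 7509 CPM in the IL-12 library, against 749 and 872 CPM in neutrophils, and no marker of the list was at 0. Their neutrophil markers summed to 8991 and 8414 CPM, against 131467 and 103078 CPM in neutrophils. Classed by marker UMIs, 29.6% of the control and 14.6% of the IL-12 macrophages were called neutrophils. The 842 IL-12 cells called DCs, nearly all of them cluster 11, summed to only 95.8 CPM of dendritic cell markers beside 2690 CPM of macrophage markers and 20106 CPM of neutrophil markers, so they are called cluster 11 here.

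Arg1 lies on chromosome 10 (GRCm38, 24915221 to 24927484, minus strand) and overlaps no other annotated gene. Nos2 lies on chromosome 11 (78920787 to 78960254, plus strand), likewise without an overlapping gene. Arg2 lies on chromosome 12 (79130777 to 79156301, plus strand) and is overlapped on the opposite strand by Vti1b and the antisense gene Gm48780. The strand setting of the counting was not given in the sources used here, so reads of these neighbours could be part of the Arg2 values, which are uncertain to that extent.

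Arg1 was a macrophage transcript in both libraries. It reached 2112 CPM (95% interval 2063 to 2162) in control cluster 6, the deeper of the macrophage clusters, and 1241 CPM (1119 to 1372) in control cluster 10, the shallower one. Cells called macrophages held 89.6% of all Arg1 UMIs of the control library and 74.5% of those of the IL-12 library. In the IL-12 library cluster 10 came first at 1443 CPM (1364 to 1525), cluster 6 second at 1016 CPM (997.2 to 1035), then came cluster 11 at 402.3 CPM and neutrophil cluster 7 at 215.7 CPM, with no overlap of neighbouring intervals in that order. In the control library cluster 7 followed cluster 10 at 209.8 CPM. Every other cluster of 50 or more cells stood between 29.4 and 76.4 CPM in the control library and between 24.8 and 146.6 CPM in the IL-12 library, and most neighbours in that range had overlapping intervals. The 146.6 CPM was IL-12 cluster 1, where 1 cell held 30 of 60 UMIs.

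Low Arg1 values were also found in cells called T and B cells. CD8 T cells showed 31.8 CPM in the control and 61.7 CPM in the IL-12 library. In neutrophils Arg1 was at 77.8 and 105.4 CPM. The Arg1 level amounted to 10.4% and 12.1% of the macrophage-marker level in control and IL-12 neutrophils, and to 9.72% and 11.6% in CD8 T cells, against 17.9% and 13.9% in macrophages. Cells of 1000 UMIs or more were thinned to 1000, which left out 110 control and 180 IL-12 neutrophils. Of the thinned cells, 5.67% of control and 6.20% of IL-12 neutrophils had an Arg1 UMI, against 3.39% and 4.17% of CD8 T cells. Median depths before thinning were 2524, 2553, 5794 and 6434 UMIs. As a class, neutrophils stood above CD8 T cells, with intervals of 72.0 to 83.9 against 26.5 to 37.8 CPM in the control and 100.8 to 110.2 against 58.6 to 65.0 CPM in the IL-12 library. Cluster 7 held 327 control and 1358 IL-12 Arg1 UMIs, beside 668 and 1979 in all cells called neutrophils. IL-12 neutrophil clusters 2, 3 and 14 stood at 49.0, 55.1 and 24.8 CPM, below the CD8 T cells, and clusters 1 and 7 above them. Control neutrophil clusters of 50 or more cells stood between 37.2 and 209.8 CPM. The part of RNA from outside the cell in these values was not tested.

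**Figure D1:**
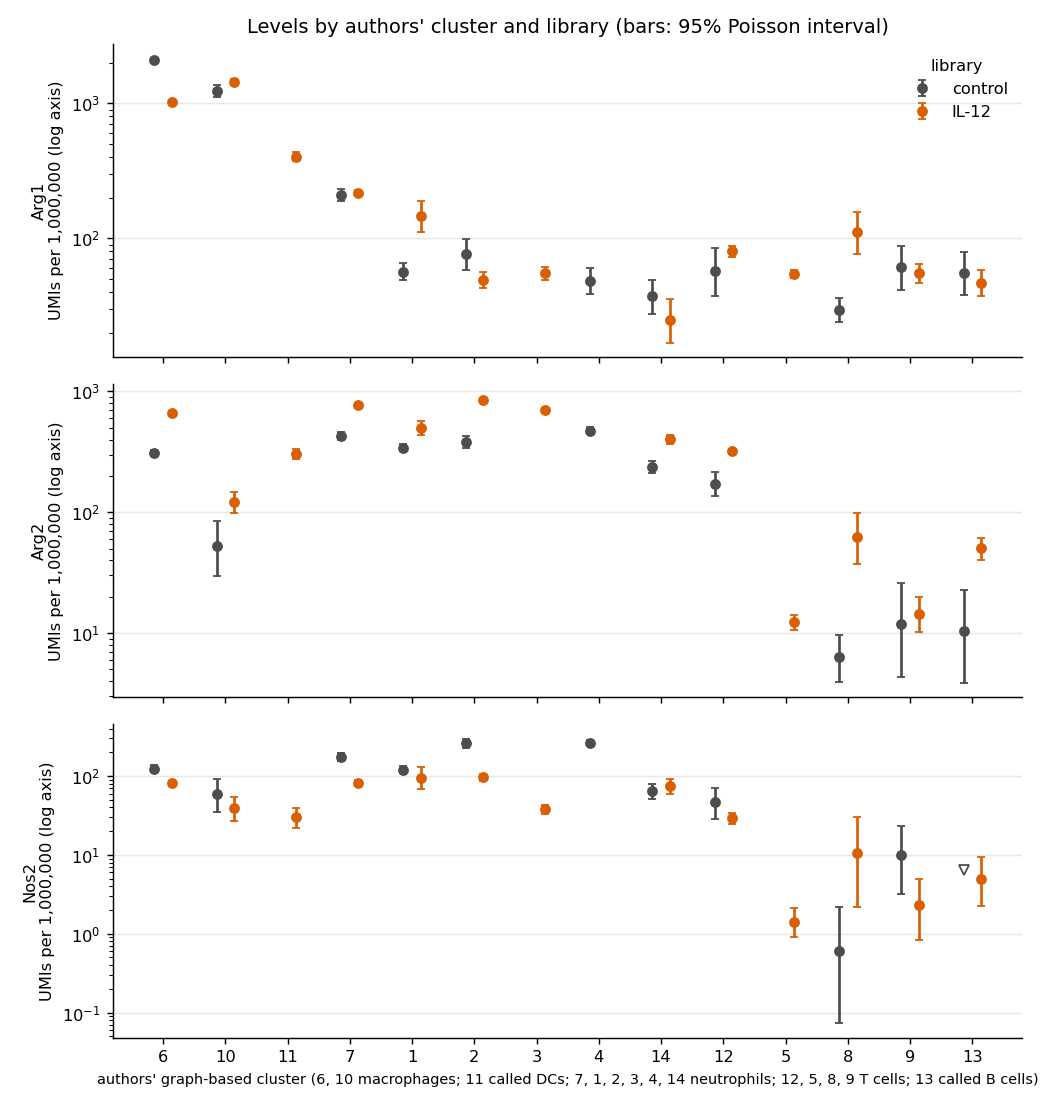
Levels of Arg1, Arg2 and Nos2 (CPM, log axes) in each authors' cluster with 50 or more cells; points are libraries, bars exact 95% Poisson intervals for counting error, and the open triangle marks the upper limit where no UMI was counted. Arg1 is highest in clusters 6 and 10, reaching 2112 CPM in control cluster 6, whereas Arg2 and Nos2 are higher in several neutrophil clusters than in cluster 6 and low in cluster 10.

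Arg2 was spread over neutrophils and cluster 6. In the control library it was highest in neutrophil cluster 4 at 472.6 CPM (441.3 to 505.6), followed by neutrophil clusters 7, 2 and 1 at 425.3, 383.5 and 343.1 CPM, neighbours whose intervals overlap. Cluster 6 came next at 308.6 CPM (290.0 to 328.1), overlapping cluster 1. In the IL-12 library neutrophil cluster 2 was first at 847.6 CPM, cluster 7 second at 774.7, then cluster 3 at 697.3 and cluster 6 at 661.4 CPM, each interval clear of the next. Macrophage cluster 10 held only 52.1 CPM in the control and 120.7 CPM in the IL-12 library, the reverse of its place for Arg1. Cluster 6 stood at 82.4% and 89.7% of the Arg2 level of all neutrophils, while its neutrophil markers summed to 7.55% and 8.66% of theirs. T cell clusters 5, 8 and 9 were between 6.30 and 62.7 CPM, and cluster 12, called CD8 T cells, was at 172.3 and 319.6 CPM with 39.7% and 38.8% of the neutrophil-marker level of neutrophils.

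Nos2 followed Arg2 more than Arg1 in its order of clusters. Control neutrophil clusters 4 and 2 stood highest at 263.7 CPM (240.4 to 288.6) and 259.6 CPM (224.6 to 298.5), whose intervals overlap. Cluster 7 followed at 174.5 CPM, then cluster 6 at 123.8 CPM and cluster 1 at 120.2 CPM. In the IL-12 library the 5 highest clusters were 2, 1, 7, 6 and 14, from 96.7 down to 74.5 CPM, each overlapping the next. Outside these, IL-12 clusters 10, 3, 11 and 12 were between 29.1 and 39.1 CPM. T cell clusters 5, 8 and 9 stood between 0.60 and 10.4 CPM where they had 50 or more cells; the 21 control cells of cluster 5 were at 25.0 CPM on 4 UMIs, all in 1 cell. None of the 95 control cells called B cells had a Nos2 UMI, which allows a level of up to 6.35 CPM and a share of up to 3.81% of such cells with a captured UMI, which is no limit on the share that express the gene. Neutrophils held 75.5% of the control library's Nos2 UMIs and 52.3% of those of the IL-12 library.

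Likeness of pattern was measured by Pearson's r of log2(CPM + 1) over the 24 cluster-and-library groups with 50 or more cells, among 5366 genes, as a description, since these groups share 2 libraries. The 5 genes most like Arg1 were Apoe (0.97), C1qa (0.97), Gatm (0.97), C1qc (0.96) and C1qb (0.94), which encode a lipid carrier, the 3 chains of complement C1q and, in Gatm, another enzyme that uses arginine. For Arg2 they were Ccr1, C5ar1, Il1b, Ier3 and Cdc42ep2, each at 0.96, among them receptors for chemokines and complement C5a and the cytokine IL-1 beta. For Nos2 they were Tlr13, Lilr4b, Sirpb1c and Fcgr3, each at 0.93, and Itgam at 0.92, mostly surface and sensing receptors of myeloid cells. Among the 3 genes themselves, r was 0.88 for Arg2 with Nos2, 0.32 for Arg1 with Nos2 and 0.22 for Arg1 with Arg2.

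Between the libraries, the 3 genes differed in direction within macrophages. The Arg1 level was 2043 CPM in 574 control macrophages and 1046 CPM in 1702 IL-12 macrophages, 1.95 times lower in the latter (95% interval 1.90 to 2.01). For Arg2 the levels were 286.7 and 620.9 CPM, 2.17 times higher in the IL-12 library (2.03 to 2.31). For Nos2 they were 117.8 and 78.1 CPM, 1.51 times lower (1.34 to 1.69). Of 6328 genes measured in macrophages, 10.8% were 1.5-fold or more higher in the IL-12 library and 20.8% were 1.5-fold or more lower, with a median log2 ratio of -0.11. Read against that background, the Arg2 ratio stood at the 96.9 percentile and the Arg1 ratio at the 6.23 percentile of all measured genes, and the Nos2 ratio at the 19.3 percentile.

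The Nos2 value in macrophages rested on few cells. The 5 control macrophages with most Nos2 UMIs held 42.4% of the UMIs of that group, and the 5 highest IL-12 cells held 13.5%. Without these cells the log2 ratio was -0.023 in place of -0.59. With cells thinned to 1000 UMIs, 5.92% of control (95% binomial interval 4.0 to 8.39) and 5.15% of IL-12 macrophages (4.11 to 6.37) had a Nos2 UMI. Without thinning, with depth not equalised, the shares were 15.5% and 18.4%.

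Arg1 and Arg2 differed between the libraries also by share of cells. After thinning, Arg1 was found in 60.4% (55.9 to 64.8) of the control macrophages and in 35.4% (33.0 to 37.8) of those of the IL-12 library, with 84 and 150 shallower cells left out, and 69.9% and 51.1% had one without thinning. For Arg2 the thinned shares were 18.8% (15.4 to 22.5) and 34.0% (31.6 to 36.4), and the unthinned ones 48.9% and 65.6%. Beside these values, the macrophage-marker sum was 11412 CPM in control and 7509 CPM in IL-12 macrophages, the 4 of 4 detected monocyte markers summed to 382.3 and 872.0 CPM, and the 8 of 8 T cell markers to 108.2 and 514.0 CPM. The part of these markers in the ratios was not tested. When cells were classed by marker UMIs instead of by the authors, the Arg1 log2 ratio in macrophages was -0.56 in place of -0.96 and that of Arg2 1.08 in place of 1.11; that rule called 54.9% of the control and 45.7% of the IL-12 macrophages macrophages, and 23.3% of the latter monocytes.

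Within the macrophages, the Arg1 ratios of clusters 6 and 10 had opposite signs; that difference was not tested. In cluster 6 (368 and 1174 cells) Arg1 was 2112 CPM in the control and 1016 CPM in the IL-12 library, 2.08 times lower (2.02 to 2.14), where 23.2% of 6940 measured genes were 1.5-fold or more lower and 11.0% higher. In cluster 10 (209 and 519 cells) Arg1 was 1241 and 1443 CPM, 1.16 times higher (1.04 to 1.31), where 23.7% of 2108 measured genes were 1.5-fold or more higher and 13.6% lower. The median log2 ratio of measured genes was -0.15 in cluster 6 and 0.12 in cluster 10. Among them the Arg1 ratio stood at the 5.16 percentile in cluster 6 and at the 57.1 percentile in cluster 10. By thinned share of cells, Arg1 was lower in the IL-12 library in both clusters. The shares were 63.6% of control and 35.0% of IL-12 cells in cluster 6. In cluster 10 they were 45.7% (36.8 to 54.7) and 36.4% (31.5 to 41.5), with overlapping intervals. Arg2 was higher in the IL-12 library in both clusters, 2.14 times (2.01 to 2.29) in cluster 6 and 2.32 times (1.36 to 4.20) in cluster 10. Nos2 was 1.52 times lower (1.35 to 1.71) in cluster 6 and 1.50 times lower in cluster 10, where the interval of 0.80 to 2.73 includes no difference. Without the cell with most Nos2 UMIs in each library, Nos2 was 1.36 times lower in cluster 6. Cluster 10 is shallow, with median depths of 1190 and 1246 UMIs, and carried 13734 and 13444 CPM of haemoglobin transcripts, which lay nearly all in a few cells: 2 control and 6 IL-12 macrophages had 1% or more haemoglobin UMIs.

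**Figure D2:**
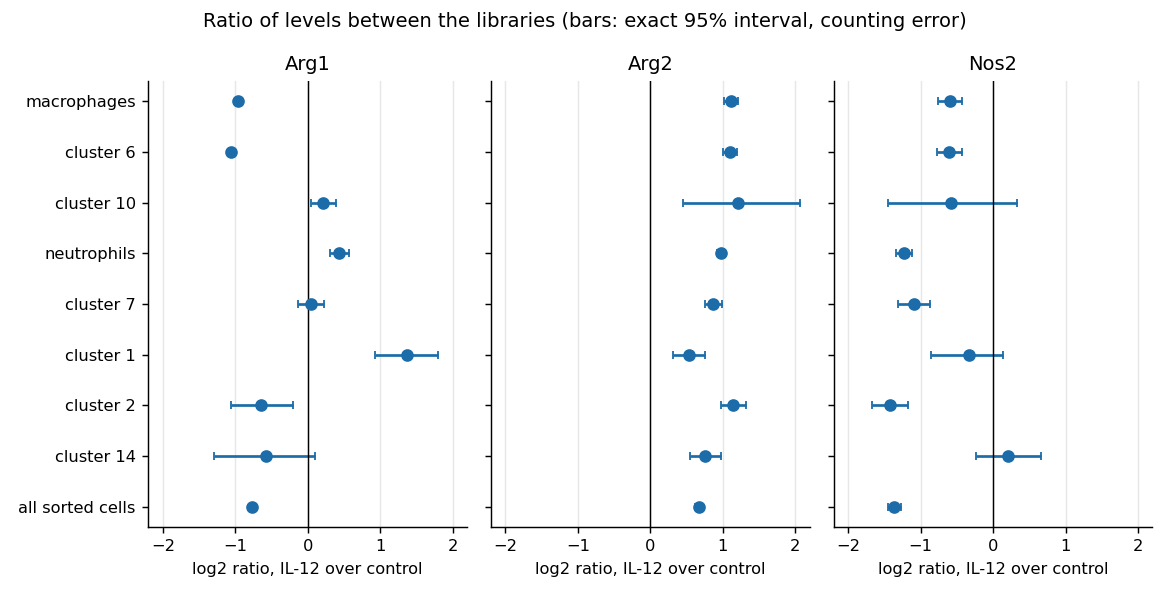
Log2 ratio of each gene's level, IL-12 over control library, in macrophages, neutrophils, the clusters with 50 or more cells of these classes in both libraries, and all sorted cells; bars are exact 95% intervals for counting error. Arg2 lies above 0 in each group shown, while Arg1 lies at -0.96 in macrophages and at 0.43 in neutrophils.

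The cluster 6 cells showed how the levels were made up. Of the control cells 34.8% held 20 or more Arg1 UMIs and 18.5% held none. In the IL-12 library 15.8% held 20 or more and 43.3% held none. For Arg2 the order was the other way: 28.3% of control and 12.1% of IL-12 cells had no UMI, while 3.53% and 20.5% had 10 to 19. Nos2 was absent from 79.9% and 75.9% of the cells, and 1.09% and 0.26% held 20 or more UMIs. Median depths of the cluster were 8900 UMIs in the control and 9333 in the IL-12 library.

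**Figure D3:**
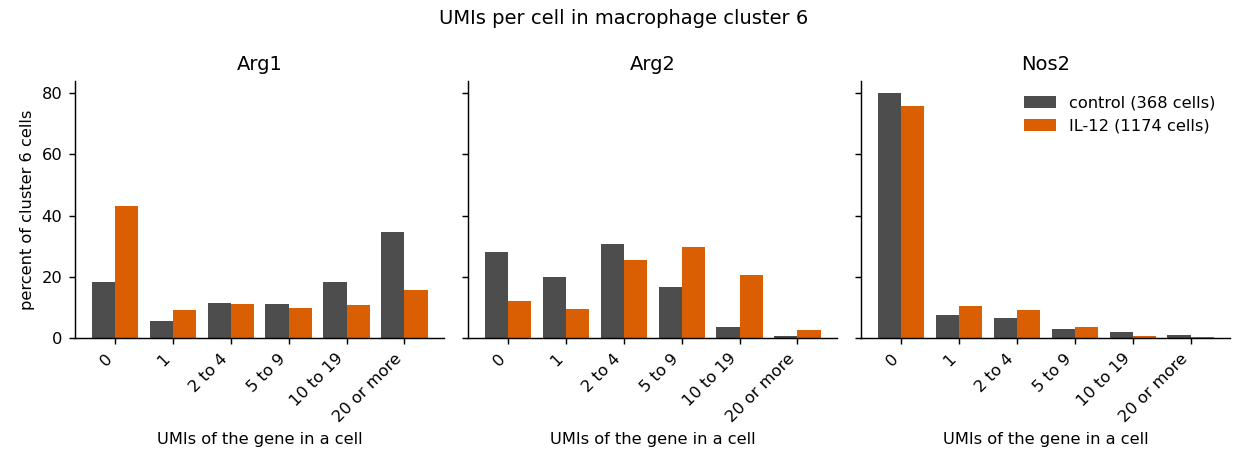
Percent of the cells of macrophage cluster 6 (368 control, 1174 IL-12) by the number of UMIs of Arg1, Arg2 or Nos2 in the cell; bars start at 0 and depths were not equalised. Cells with no Arg1 UMI make up 18.5% of the control and 43.3% of the IL-12 bars, and cells with no Arg2 UMI 28.3% and 12.1%.

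As a share of all arginase UMIs, Arg1 made up 87.3% (86.5 to 88.0) in control cluster 6 and 60.6% (59.9 to 61.3) in IL-12 cluster 6. Capture may differ between the genes, so the shift between libraries is given, not the balance itself. Cells with more Arg2 than Arg1 UMIs were 17.4% of control and 55.5% of IL-12 cluster 6. In cluster 10 Arg1 made up 96.0% and 92.3% of arginase UMIs, and in neutrophils 17.2% and 12.5%.

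Neutrophils had more Arg2 and less Nos2 in the IL-12 library. Arg2 stood at 374.5 CPM in 2721 control cells and at 737.3 CPM in 5908 IL-12 cells, 1.97 times higher (1.89 to 2.05). Nos2 stood at 164.3 and 70.1 CPM, 2.34 times lower (2.17 to 2.53). Arg1 stood at 77.8 and 105.4 CPM, 1.35 times higher (1.24 to 1.48). Among 3351 measured genes 11.1% were 1.5-fold or more higher and 40.0% were 1.5-fold or more lower in IL-12 neutrophils, with a median log2 ratio of -0.39, so a Nos2 value 1.5-fold lower is shared with 40.0% of genes there; its ratio stood at the 9.61 percentile and that of Arg2 at the 94.7 percentile. Thinned shares were 30.1% and 47.1% of neutrophils with an Arg2 UMI and 10.1% and 5.36% with a Nos2 UMI.

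Different clusters made up most of the neutrophils in the libraries: cluster 1 with 1263 cells and cluster 4 with 552 in the control, cluster 3 with 2606 and cluster 2 with 1914 in the IL-12 library. Cluster 7, the highest in Arg1 of the neutrophil clusters with 50 or more cells, had 254 control and 1096 IL-12 cells, at 209.8 and 215.7 CPM of Arg1. The part of cluster shares in the Arg1 ratio of all neutrophils was not tested. Within the clusters that had 50 or more cells in both, Arg2 was higher in the IL-12 library in each, by 1.45 times in cluster 1, 2.21 in cluster 2, 1.82 in cluster 7 and 1.69 in cluster 14. Nos2 was 2.69 times lower (2.26 to 3.19) in cluster 2 and 2.13 times lower (1.84 to 2.48) in cluster 7, where 35.7% of measured genes were 1.5-fold or more lower and 9.44% higher, whereas in cluster 1 it was 1.26 times lower with an interval of 0.91 to 1.80 and in cluster 14 1.16 times higher with an interval of 0.85 to 1.58. Arg1 had no common direction: 2.58 times higher in cluster 1, 1.56 times lower in cluster 2, 1.03 times higher in cluster 7 with an interval of 0.91 to 1.16, and 1.50 times lower in cluster 14 with an interval of 0.93 to 2.45. The cluster 1 value rested on 1 IL-12 cell: without the cell with most Arg1 UMIs in each library it was 1.41 times higher, with an interval of 0.92 to 2.09. Without the top cells of Nos2, that gene was 1.63 times lower in cluster 1, with a fold of IL-12 over control between 0.40 and 0.90. With cells classed by marker UMIs, the Arg1 log2 ratio in neutrophils was -0.34 in place of 0.43; that rule called 2901 control and 6663 IL-12 cells neutrophils. Of these, 2628 and 5622 were also the authors' neutrophils, with Arg1 at 72.1 and 85.7 CPM. The rest took in 170 control and 249 IL-12 macrophages at 1809 and 877.2 CPM, and 500 IL-12 cells of the class called DCs at 403.1 CPM.

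Over all sorted cells, Arg1 was 479.5 CPM in the control and 280.6 CPM in the IL-12 library, 1.71 times lower (1.66 to 1.75). Arg2 was 252.0 and 400.8 CPM, 1.59 times higher (1.54 to 1.64), and Nos2 107.9 and 42.0 CPM, 2.57 times lower (2.42 to 2.73). Of 5366 genes, 14.4% were 1.5-fold or more higher and 24.3% lower. Neutrophils were 64.3% of control and 45.5% of IL-12 cells, and with the IL-12 cells weighted to the control library's shares of classes the log2 ratio of Arg2 was 1.01 in place of 0.67 and that of Nos2 -1.03 in place of -1.34. The Arg1 log2 ratio was -0.38, in place of -0.77, when each cell counted alike.

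Arg1 and Nos2, often used as markers of opposite macrophage states, were detected together under the same barcodes of cells called macrophages. In the control library 79 of 574 macrophages had UMIs of both, and in the IL-12 library 229 of 1702. Of control macrophages with Nos2, 88.8% (80.3 to 94.5) had Arg1, against 66.4% (62.0 to 70.6) of those without. In the IL-12 library the shares were 73.2% (67.9 to 78.0) and 46.1% (43.4 to 48.7). Cells with Nos2 were deeper, with medians of 9284 against 4653 UMIs in the control and 9739 against 6219 in the IL-12 library. Standardized over cluster and 3 depth bins, the difference was 12.5 percentage points in the control and 22.0 in the IL-12 library. Thinned to 1000 UMIs, without standardization, it was 16.4 points in 490 control and 19.4 in 1552 IL-12 cells, with shallower cells left out. Only 29 and 80 thinned cells had Nos2. Of these, 75.9% (56.5 to 89.7) had Arg1 in the control, an interval that includes the 59.4% of cells without Nos2. The thinned IL-12 shares were 53.8% (42.2 to 65.0) and 34.4%. In simulated counts without a link between the genes the standardization removed most of a difference made by depth but not all, so values of a few points are not read as a link. These counts used the depths of IL-12 macrophages, a lowered Arg1 rate and counting error alone. They give no size for what remains in the control library or at the measured Arg1 rate. The Arg1 level was 3027 CPM in control macrophages with Nos2 against 1774 CPM in those without, and 1685 against 832 CPM in the IL-12 library. The neutrophil markers of macrophages summed to 8991 CPM in the control and 8414 CPM in the IL-12 library. Neutrophils held 75.5% and 52.3% of all Nos2 UMIs. The part of neutrophil RNA or of mixed barcodes in the co-detection was not tested.

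The other pairs were less uniform. In cluster 6, 84.1% of control cells with Arg2 had Arg1, against 75.0% of those without, while in the IL-12 library the shares were 55.8% and 63.4%. The intervals overlapped in both libraries, 79.1 to 88.3 against 65.6 to 83.0 in the control and 52.7 to 58.9 against 54.9 to 71.3 in the IL-12 library. The standardized differences were 5.42 and -7.39 points, and the thinned ones 5.03 and -6.27. The IL-12 cluster 6 cells without Arg2 had 1696 CPM of Arg1 and those with it 961.3 CPM, whereas control cells had 1739 and 2217 CPM. Arg2 and Nos2 in cluster 6 differed by 12.2 standardized points in the control and 1.07 in the IL-12 library. All 3 genes were found in 58 of 368 control and 189 of 1174 IL-12 cells of the cluster. In neutrophils, Arg1 and Arg2 gave 0.54 and -6.55 standardized points and 1.54 and -0.37 thinned ones. Arg1 and Nos2 gave -2.92 and 1.0 standardized points and Arg2 and Nos2 -0.33 and 1.15.

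**Figure D4:**
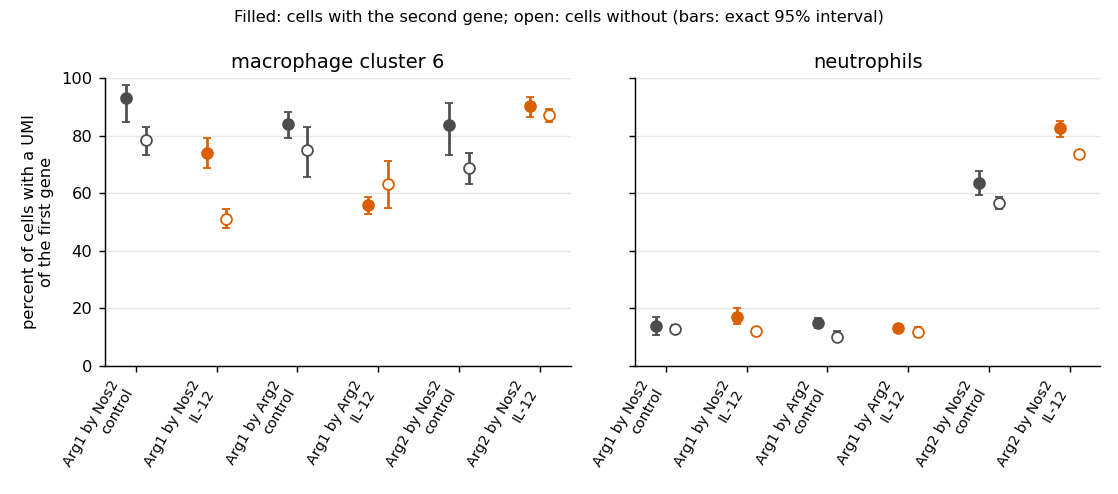
Percent of cells with a UMI of the first gene among cells with (filled) and without (open) the second gene, in macrophage cluster 6 and in neutrophils, for control (grey) and IL-12 (orange); bars are exact 95% binomial intervals and depth is not equalised. Arg1 is more frequent with Nos2 than without it in cluster 6 of both libraries (74.2% against 51.2% in IL-12), and its difference by Arg2 there has opposite signs in the libraries, with overlapping intervals in each.

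Macrophages with an Arg1 UMI were set beside those without, standardized over cluster and depth bin (384 against 170 control cells and 860 against 829 IL-12 cells). The 5 genes highest in both libraries among 5045 were Retnla, Ackr3, Prg4, Fcna and Pf4. Retnla, the gene of the IL-4-inducible secreted protein RELM-alpha, stood at log2 ratios of 4.90 in the control and 5.75 in the IL-12 library, but 5 cells held 91.4% and 79.4% of its UMIs, and for Prg4 5 cells held 96.1% and 75.8%. Pf4, a chemokine gene, was at 2.27 and 3.30 with UMIs in 87 and 195 cells. The lowest were the haemoglobin genes Hbb-bs, Hba-a1, Hbb-bt and Hba-a2, with 96.8% or more of their UMIs in 5 cells, and Mcpt1, a mast cell protease gene. For Mcpt1 5 cells held 98.5% of the control and 71.9% of the IL-12 UMIs.

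Hypoxia and glycolysis genes stood with Arg1: 6 of 17 were 1.5-fold or more higher in cells with Arg1 in both libraries, against 2.16% of all genes, and none was lower, against 0.614% of all genes. Adm, the gene of the peptide adrenomedullin, was at 2.03 and 1.89 on only 23 control and 60 IL-12 UMIs. Bnip3, a mitophagy gene, was at 1.46 and 1.15, and Pdk1, a brake on pyruvate oxidation, at 1.22 and 1.14 on 42 and 80 UMIs. Of 13 macrophage state genes 5 were higher and 1 lower. Fn1, fibronectin, was at 1.58 and 2.1, and Chil3, a chitinase-like lectin, at 2.16 and 1.30. The lectin gene Clec10a was at -2.52 and -1.34 on 20 control and 164 IL-12 UMIs. Of 9 inflammatory cytokine genes 4 were higher, Il6 at 2.53 and 1.24. Interferon-gamma response genes gave 0 of 17 higher and 1 lower, with median log2 ratios of -0.74 and -0.33. The lower gene was Ciita at -0.72 and -1.15, on 28 control and 191 IL-12 UMIs.

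The same split by Nos2 (85 against 438 control cells and 310 against 1379 IL-12 cells) was led by Egln3, an oxygen-sensing prolyl hydroxylase, at 1.72 and 1.54. Saa3, an acute-phase protein gene, was at 1.44 and 1.82, and Rdh12, Cstdc6 and Cstdc5 followed. Of the hypoxia and glycolysis list 7 of 17 genes were 1.5-fold or more higher in both libraries, against 1.84% of all genes (1.70% were lower), among them Ero1l at 1.84 and 1.13. Of 9 inflammatory genes 5 were higher, with Tnf at 2.12 and 1.0 and Il1a at 1.0 and 1.04. None of 17 interferon-gamma response genes passed 1.5-fold in both libraries in either direction, with medians of 0.28 and 0.00. Macrophage state genes gave 0 of 13 higher and 1 lower, Chil3 at -0.73 and -0.71.

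**Figure D5:**
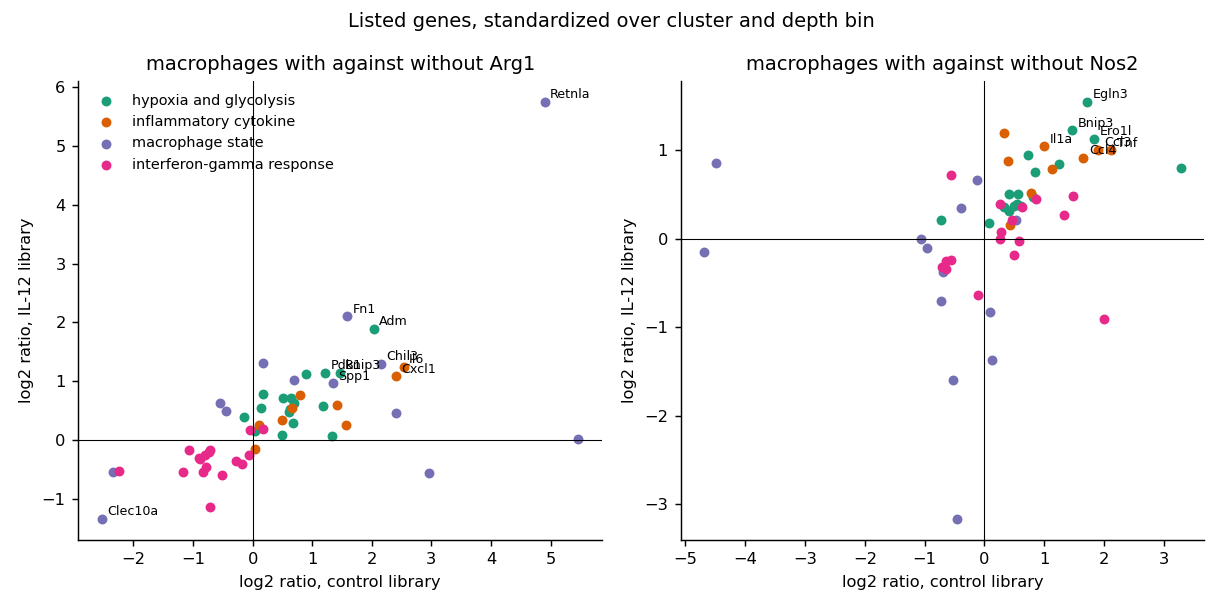
Log2 ratio of listed genes in macrophages with against without an Arg1 UMI (left) or a Nos2 UMI (right), control library on the x axis and IL-12 library on the y axis, standardized over cluster and depth bin; each point is 1 gene, and genes with a ratio of 0.9 or more from 0 and of the same sign in both libraries are named. Hypoxia and glycolysis genes lie mostly above 0 in both libraries in both panels, and interferon-gamma response genes mostly below 0 in the left panel.

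Neutrophils with an Arg2 UMI were set beside those without in the same way. Just 1 Arg2 UMI was found in 29.0% of control and 23.4% of IL-12 neutrophils, so cells without a captured UMI may still express the gene. The split therefore cannot show how far neutrophils that express Arg2 differ from others. Among 5096 genes 0.216% were 1.5-fold or more higher and 1.31% lower in both libraries. Bud13 was first at 1.01 and 1.0, ahead of Ppox, Spaca6, Tes3-ps and Csnk1g1, each with 188 or fewer UMIs in either library. The lowest was Cxcl11, a ligand of the chemokine receptor CXCR3, at -1.58 and -1.91, followed by Mtln, by Camp, a granule antimicrobial peptide gene, at -1.12 and -1.17, and by Abhd12 and Lsm4. In the control and IL-12 neutrophils, 5 cells held 54.9% and 13.6% of the Cxcl11 UMIs and 51.0% and 37.1% of the Camp UMIs. No gene of the hypoxia or inflammatory lists passed in either direction. Of 10 macrophage state genes 2 were lower in neutrophils with Arg2, the macrophage genes Apoe at -0.83 and -0.62 and C1qa at -0.79 and -0.82. Of 14 interferon-gamma response genes 1 was lower, H2-Ab1 at -0.61 and -0.61. Spr, sepiapterin reductase of the tetrahydrobiopterin pathway, was at -0.99 and -0.75 on 47 and 88 UMIs.

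Genes around the arginine enzymes were taken from lists and counted against the same background in macrophages (10.8% of genes higher, 20.8% lower). The arginine transporters of the list were absent, under the names used, from the genes of the expression tables and so were not analysed here. Ass1, argininosuccinate synthase, which recycles citrulline towards arginine, was 18.7 CPM in control and 72.5 CPM in IL-12 macrophages, 3.88 times higher (3.03 to 5.05), while Asl, its partner, was 19.8 and 18.9 CPM. Of 12 ornithine and polyamine genes 1 was higher, Aldh18a1 on 4 and 26 UMIs, and 2 were lower. Odc1, ornithine decarboxylase, the entry to the polyamines, was 100.8 and 50.8 CPM, 1.98 times lower (1.74 to 2.26), and Oaz2, one of its antizymes, 1.58 times lower. Gch1, which opens the synthesis of tetrahydrobiopterin, the cofactor of nitric oxide synthases, was 1.46 times higher, within the 1.5-fold limit. The other nitric oxide synthase listed in the macrophages, Nos3, had 4 and 16 UMIs, and Nosip, a synthase-interacting protein gene, was 1.55 times higher.

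Signals known to act on these genes were described the same way, against 10.8% of genes higher and 20.8% lower in macrophages. Of 15 inputs known for Arg1, none was higher and 3 were lower in IL-12 macrophages, a count of lower genes near the share of all genes. They were Il4ra, the shared IL-4 and IL-13 receptor chain, 1.99 times (1.82 to 2.18), Klf4 1.72 times and Hif1a 1.58 times. Of 15 inputs known for Nos2, Nfkb1 was 2.01 times and Jak2 1.52 times lower and none higher. Interferon-gamma response genes were the list with most members higher, 14 of 17 with a median log2 ratio of 1.14, led by Iigp1 at 5.94 times, Cxcl10 at 4.36, Cxcl9 at 3.85 and Gbp4 at 3.61. Hypoxia and glycolysis genes gave 0 higher and 6 lower of 17, with Hk2 2.51, Vegfa 2.48, Pgk1 2.18 and Eno1 1.94 times lower. Of 15 macrophage state genes 9 were lower, with Cd163 16.5, Ccl17 15.7, Chil3 8.78 and Fn1 3.28 times lower, and 2 were higher, Clec10a 2.49 and Il10 1.88 times. Among 10 inflammatory genes 3 were higher, Il23a 5.74, Tnf 2.47 and Cxcl1 1.67 times, and 2 lower, Il6 2.89 and Ptgs2 1.62 times.

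In neutrophils 11.1% of measured genes were 1.5-fold or more higher and 40.0% lower. Of 14 inputs known for Arg1, 6 were lower and none higher. That count of lower genes is near the share of all genes and is not read as a result about the list. Il4ra was 2.53, Csf2rb 2.11, Csf2rb2 2.05 and Stat6 1.88 times lower. Of 14 inputs known for Nos2, 5 were lower, also near the share of all genes, and Irf8 was 1.63 times higher. Jak2 was 3.08 (2.88 to 3.29), Nfkb1 2.85, Myd88 1.65 and Irf1 1.53 times lower. Interferon-gamma response genes gave 14 of 17 higher, Iigp1 11.8 and Gbp4 11.4 times among them, with Irf1 the 1 lower, and inflammatory genes gave 8 of 10 higher, led by Tnf at 4.59 times, with Il6 1.94 times lower. Oaz2 and Azin1, regulators of ornithine decarboxylase, were 2.14 and 1.59 times lower, and Odc1 was 27.6 and 28.6 CPM. Of 17 hypoxia and glycolysis genes 2 were higher, Adm 1.58 and Bnip3 1.52 times, and 6 lower, with Hk2 at 2.36 and Pgk1 at 2.12 times. These counts are near the shares of all genes. Of 11 macrophage state genes Spp1, osteopontin, was 3.65 times higher and 4 were lower, with Chil3 at 11.7 times, counts again near those shares. Retnla was 178.5 CPM in control and 3.41 CPM in IL-12 neutrophils, 52.4 times lower (40.8 to 68.4).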

How the data were processed

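The authors' deposited tables give log2(CPM + 1) per cell and gene, with their clusters and cell classes; per the submitters' processing notes Cell Ranger 2.1.0, STAR 2.6.1, Partek and mm10 were used. UMIs were recovered by undoing the log2 scale and taking each cell's smallest value above 0 as 1 UMI; 6 of 4251108 control and 13 of 13883686 IL-12 values were further than 0.1 from a whole number. The table's genes held 72.9% and 70.4% of the UMIs of the cells. UMIs were summed per library and class or cluster, with exact 95% Poisson or binomial intervals. With 1 library per treatment no test or p-value was computed, and log2 ratios use a pseudocount of 1 CPM while folds use none. A measured gene had at least 50 UMIs in all and was found in 5% of the cells of either library; listed genes needed 20 UMIs. For thinned shares, cells of 1000 UMIs or more were thinned to 1000 and shallower cells were left out. No doublet caller was run, and the sources used here do not give how the authors treated doublets; as a partial check, results were recomputed without the 12 control and 174 IL-12 macrophages that carry a T cell receptor clone. Methods were tested on simulated counts.

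The members, the 11 gene lists and the 13 marker lists were chosen with earlier results of these data known. Named are the members, the 5 genes most like each over clusters, the 5 highest and 5 lowest genes of 3 splits of cells (ranked by the smaller of the 2 libraries' ratios) and, per list, up to 4 genes past 1.5-fold in each direction, of which some resting on few UMIs are left out and 1 gene is not reported here; Asl, Gch1, Nos3, a few list genes of the splits and a few more named beside these were picked after their values were seen. Alternatives were the scale, the weighting of cells, the pseudocount, the depth and mitochondrial limits, the highest cells, the composition and the class call. Positions are from GENCODE M21. Python 3.11.15, numpy 2.4.6, scipy 1.17.1, pandas 2.3.3 and matplotlib 3.10.9 were used. Cells of 1 library are not replicates, and both libraries pool 3 mice.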

Additional observations from a re-analysis of the deposited data

Results flagged for a closer look

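The Arg1 log2 ratio of IL-12 over control had opposite signs in the main myeloid classes, -0.96 in macrophages and 0.43 in neutrophils. It also had opposite signs in the macrophage clusters, -1.06 in cluster 6 and 0.22 in cluster 10. These are ratios of summed UMIs. Among the genes measured in each cluster, the cluster 6 ratio stood at the 5.16 percentile and that of cluster 10 at the 57.1 percentile. The thinned share of cells with Arg1 was lower in the IL-12 library in both clusters, with overlapping intervals in cluster 10. Co-detection of Arg1 with Arg2 in cluster 6 was 5.42 standardized percentage points in the control and -7.39 in the IL-12 library, with overlapping intervals of the shares in each library. With 1 library per treatment, none of these differences was tested. The neutrophil value was -0.34 when cells were classed by marker UMIs. In neutrophil cluster 7, with 254 control and 1096 IL-12 cells, the Arg1 log2 ratio was 0.04.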

How the results depend on the processing

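Of 86 alternative values for 11 results, 61 moved by less than the counting error, 24 moved by more with the same sign and 1 changed sign; the cause was not tested. The one that changed sign was Arg1 in neutrophils, -0.34 with cells classed by marker UMIs; that class call also gave -0.56 for Arg1 in macrophages and -1.11 for Nos2 in neutrophils. Scaling to the UMIs of the table's genes gave -0.72 for Arg1 and 0.72 for Arg2 in all cells and -1.02 for Arg1 in macrophages. Counting each cell alike gave Arg1 values of -0.38 in all cells, -0.72 in macrophages and 0.29 in neutrophils, and -0.37 for Nos2 in macrophages. Without the 5 highest cells, Arg1 was -0.71 and Nos2 -1.26 in all cells, and Arg2 was 1.24 and Nos2 -0.023 in macrophages. Weighting to control class shares gave -0.69 for Arg1, 1.01 for Arg2 and -1.03 for Nos2. Cells of 2000 UMIs or more gave -0.83 for Arg1 in all cells. Leaving out receptor-bearing cells and cells with 1% or more haemoglobin UMIs, chosen after seeing the data, gave -0.55, 0.95 and -1.09 in all cells and -0.92 for Arg1 in macrophages. Co-detection of Arg1 and Nos2 without standardization was 22.4 and 27.1 points, and 16.2 points in IL-12 macrophages at 2 UMIs or more. Without the cell with most UMIs of the gene in each library, also chosen after seeing the data, 17 of 18 cluster ratios moved by less than the counting error, and Arg1 in cluster 1 was 0.49 in place of 1.35. No paired analysis was possible because each treatment has 1 expression library and no replicate numbers. Few UMIs lie behind the Arg2 and Nos2 values of control cluster 10, 16 and 18, and the pooling of 3 mice hides the spread between animals.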
